A study of Mus musculus with 8 samples.

Results

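The 10 genes described here are widely used markers of macrophages and of leukocytes in general, namely Ptprc, Csf1r, Cd68, Lyz2, C1qa, C1qb, C1qc, Tyrobp, Fcer1g and Cx3cr1. They were chosen by symbol, and all 10 were found among the 26586 gene symbols counted. In the study, oocytes of the C57Bl/6 x CBA background received mitochondria from ovarian egg precursor cells of the same strain when they were fertilised by sperm injection, and the line was bred to the third generation. Ovaries of day 3 pups of that generation (mito-supplemented) and of control pups of the same background were digested, and total RNA was sequenced from primordial follicles drawn out of the digest by pipette and pooled. The labels give 4 mito-supplemented and 4 control samples and call each one a biological replicate, while some samples share the first part of a label code whose meaning is not given in the sources used here. The question addressed was whether the supplementation left its mark on the follicle transcriptome of later generations. Control replicates 1 to 4 had totals of 17658559, 13917412, 18219362 and 10370045 counts, and mito-supplemented replicates 1 to 4 had 19760763, 13370911, 16116434 and 13276462. In control replicate 4, 75.3% of the counts lay on ribosomal RNA symbols, which left 2559876 counts for every other gene, against 20.1% to 45.6% in the other 7 libraries. Levels are given as counts or as counts per 1000000 (CPM) after TMM normalisation, and 3 counts, taken as the floor, equalled between 0.123 CPM in control replicate 1 and 0.592 CPM in control replicate 4.

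Macrophages are phagocytes that settle in tissues before birth and renew there or from blood monocytes. Their survival depends on the receptor encoded by Csf1r and its ligands Csf1 and Il34, and in the ovary they are known for clearing dying germ cells and degenerating follicles. A primordial follicle is an oocyte within a layer of flat granulosa cells and holds no leukocyte of its own, so that transcripts of these genes in a follicle preparation measure other cells or a low level of transcription in follicle cells. In bulk RNA, fewer cells of a type and less RNA per cell cannot be told apart.

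The 10 genes did not all follow the same pattern over the libraries. Ptprc, Lyz2 and Tyrobp were highest in mito-supplemented replicate 1, with control replicates 2 and 3 next, and these were also the libraries with the highest levels of neutrophil granule genes and of red cell genes. C1qa, C1qb and C1qc, which tissue macrophages transcribe abundantly, were at or under the floor in all but 2 of the gene and library combinations. Some other macrophage markers were scarce too. Trem2 reached at most 8 counts, in mito-supplemented replicate 3, Timd4 at most 4 and Emr1, the gene of a macrophage adhesion receptor now named Adgre1, at most 44. Others were not, such as Mrc1, described below, and Cd14 and Ccr2, with 281 and 169 counts in mito-supplemented replicate 1. Fcer1g was also highest in mito-supplemented replicate 1, but control replicate 1 came next. Csf1r, Cd68 and Cx3cr1 were detected at low levels and were spread over libraries in another way. The 10 genes are therefore named below by symbol and not as a macrophage signature.

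Summed over the 10 genes, the level was 18.2, 139.6, 122.7 and 23.1 CPM in control replicates 1 to 4, and 770.9, 12.5, 21.3 and 11.8 CPM in mito-supplemented replicates 1 to 4. The highest and the lowest library were both mito-supplemented, and the range of the controls lay within theirs. Lyz2 alone made up 82.8% of the summed counts in mito-supplemented replicate 1, and 73.1%, 60.3% and 81.2% in control replicates 2, 3 and 4, so that the sum mostly followed this gene in those libraries. The sum amounted to 0.0804% of all counts in mito-supplemented replicate 1 (95% Wilson interval 0.0792% to 0.0817%) and to 0.00113% in control replicate 4 (0.000941% to 0.00135%), where these intervals, like the floors, cover counting error only. Neutrophil genes (11 genes, among them S100a8, S100a9, Ngp and Mpo) summed to 11.4, 817.6, 739.0 and 9.67 CPM in controls and to 3134, 22.5, 3.81 and 6.81 CPM in mito-supplemented samples. The red cell genes, of which 10 of 12 were matched, summed to 18.2, 7172, 4820 and 80.9 CPM in controls and to 7038, 106.1, 28.3 and 28.6 CPM in mito-supplemented samples, with Slc4a1, the anion exchanger of red cells, as the most abundant in 6 libraries. Hba-a1 and Hba-a2, near-identical globin genes whose reads the counting could split or drop, had at most 5 and 106 counts. Neutrophil granules and red cell membranes were thus represented in the same 3 libraries as Ptprc and Lyz2, and the part of those cells in the levels of the 10 genes was not tested. The chi-square of the counts divided by its degrees of freedom was 65.3 for the most alike pair of libraries, control replicates 2 and 3, so that no pair agreed within sampling noise.

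**Figure D1:**
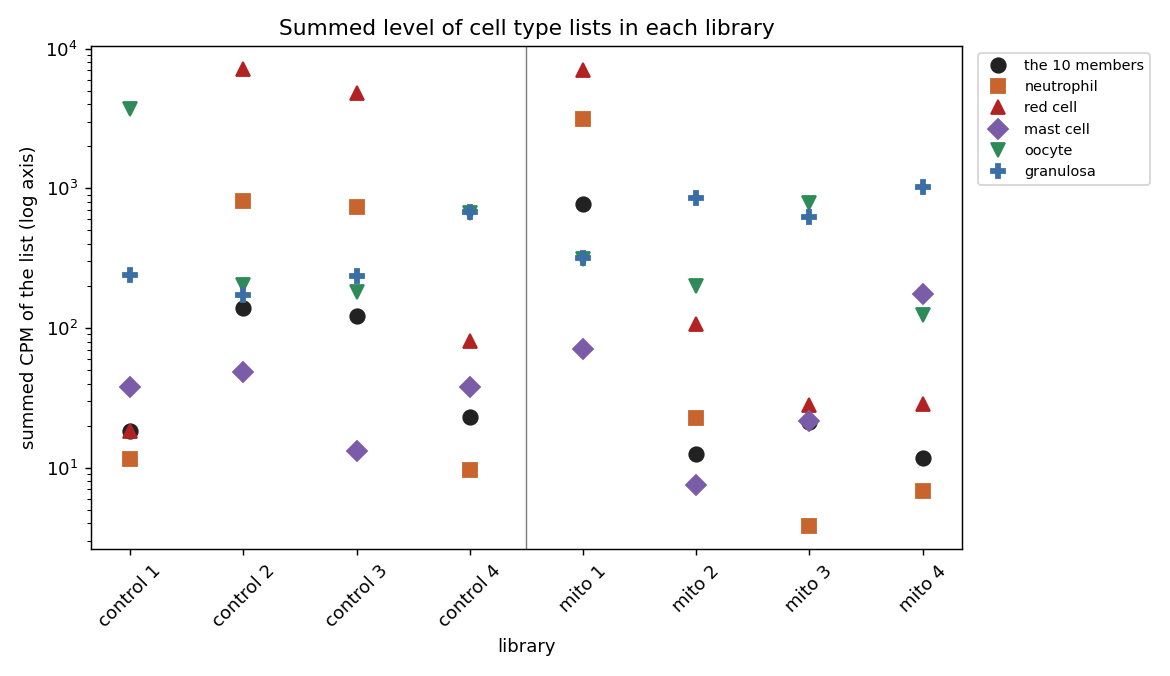
Summed level in CPM, on a log axis, of the 10 genes and of 5 lists of cell type markers in each of the 8 libraries, 1 point per list and library. The 10 genes, the neutrophil genes and the red cell genes are high together in control replicates 2 and 3 and in mito-supplemented replicate 1, at 139.6, 122.7 and 770.9 CPM for the 10 genes.

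Ptprc encodes CD45, a tyrosine phosphatase on the surface of nearly all nucleated blood cells. It had 7, 249, 516 and 4 counts in control replicates 1 to 4, and 1478, 2, 23 and 7 counts in mito-supplemented replicates 1 to 4. In CPM these were 0.287, 19.7, 29.5 and 0.790 in controls and 71.7, 0.139, 1.04 and 0.487 in mito-supplemented samples. Each group therefore held libraries in which the common leukocyte marker was close to the floor and at least 1 in which it was well above, and the groups overlapped.

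Lyz2 encodes the lysozyme of macrophages, monocytes and neutrophils, an enzyme that cuts bacterial cell walls. Its level was 2.30, 102.1, 74.1 and 18.8 CPM in controls and 638.1, 2.29, 4.22 and 2.02 CPM in mito-supplemented samples. A single library, mito-supplemented replicate 1, with 13151 counts, held 75.6% of the CPM summed over libraries, and the other 3 of that group lay below control replicates 2, 3 and 4. Lyz1, a near copy of Lyz2 with which reads could be shared, had at most 15 counts, and how reads that match both were treated is not given. As a ratio of counts, Lyz2 stood to Ptprc as 8.90 to 1 in mito-supplemented replicate 1, 5.17 to 1 in control replicate 2 and 2.51 to 1 in control replicate 3.

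**Figure D2:**
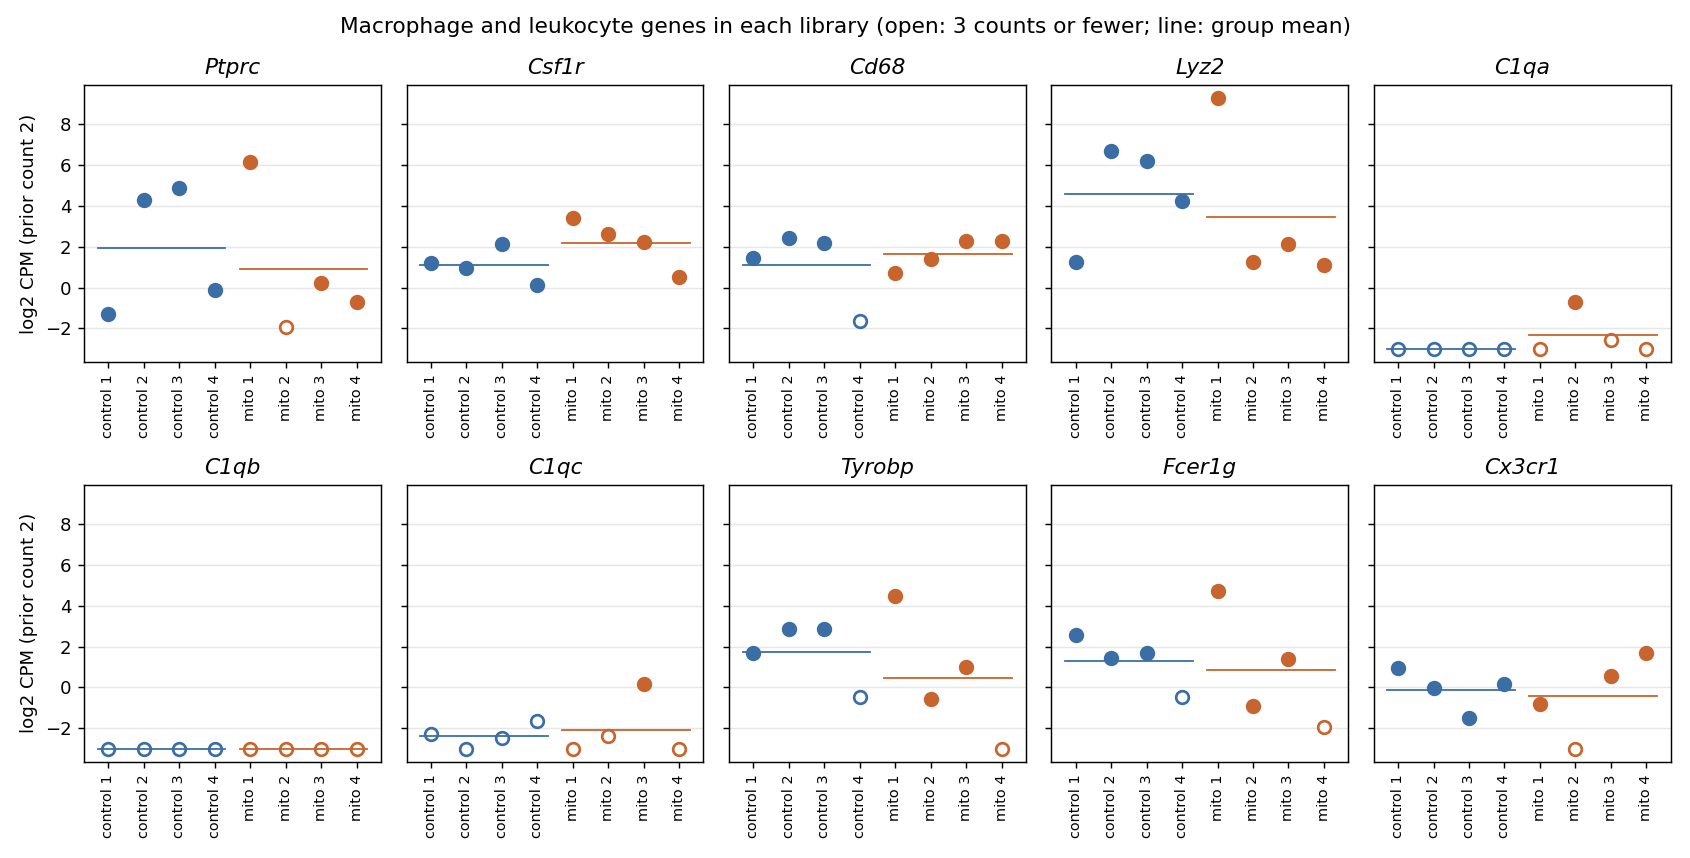
Level of each of the 10 genes in each library as log2 CPM with a prior count of 2 (controls blue, mito-supplemented orange, open points at 3 counts or fewer, lines at the group means). Ptprc and Lyz2 span over 8 log2 units between libraries of the same group of 4, Csf1r and Cd68 span 3.27 and 4.07 over all 8 libraries, and C1qb lies at 0 counts throughout.

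Promoters of the genes that varied together, Lyz2 and Ptprc, are shown beside those of Cd68 and C1qb, which did not vary with them. The sequences are from RefSeq on the build GRCm38.p6, run from 250 bases before to 50 bases after an annotated start, and are written on the strand of the gene, which is the minus strand for all 4. Lyz2 lies at chr10:117282223-117282522, Ptprc at chr1:138175256-138175555 (the farther upstream of 2 annotated starts), Cd68 at chr11:69666121-69666420 and C1qb at chr4:136886151-136886450, and the last 50 bases of each window lie downstream of that start. Capitals mark GAGGAA on either strand (TTCCTC on the other), the purine-rich PU box that the myeloid factor PU.1 is known to bind.
Lyz2: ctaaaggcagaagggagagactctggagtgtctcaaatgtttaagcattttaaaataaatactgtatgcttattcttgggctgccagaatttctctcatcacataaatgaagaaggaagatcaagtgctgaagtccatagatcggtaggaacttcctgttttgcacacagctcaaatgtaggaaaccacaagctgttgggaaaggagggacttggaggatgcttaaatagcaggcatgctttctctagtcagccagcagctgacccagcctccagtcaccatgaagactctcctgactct
Ptprc: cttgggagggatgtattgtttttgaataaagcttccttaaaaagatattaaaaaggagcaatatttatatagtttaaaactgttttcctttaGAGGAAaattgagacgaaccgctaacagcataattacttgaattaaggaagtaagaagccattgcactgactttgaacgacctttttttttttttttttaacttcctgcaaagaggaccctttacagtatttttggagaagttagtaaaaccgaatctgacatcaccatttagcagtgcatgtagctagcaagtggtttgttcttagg
Cd68: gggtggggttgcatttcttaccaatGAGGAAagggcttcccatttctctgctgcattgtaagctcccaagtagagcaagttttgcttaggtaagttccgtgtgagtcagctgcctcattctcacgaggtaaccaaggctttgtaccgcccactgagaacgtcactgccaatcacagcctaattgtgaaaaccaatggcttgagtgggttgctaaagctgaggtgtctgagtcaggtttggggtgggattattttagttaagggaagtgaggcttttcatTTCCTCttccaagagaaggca
C1qb: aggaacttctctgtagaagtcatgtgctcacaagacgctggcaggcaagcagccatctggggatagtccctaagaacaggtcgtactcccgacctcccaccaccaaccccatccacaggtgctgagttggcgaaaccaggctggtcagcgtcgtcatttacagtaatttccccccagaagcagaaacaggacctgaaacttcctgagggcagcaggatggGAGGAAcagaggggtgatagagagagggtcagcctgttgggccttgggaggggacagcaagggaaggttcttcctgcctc

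The motif lay 158 bases upstream of the start in Ptprc, 30 upstream in C1qb, and both 225 upstream and 29 downstream in Cd68, and these letters did not occur in the Lyz2 window. Of the 7 genes searched, whose windows numbered 8, 4 had the motif, C1qc being the other one, 193 bases upstream, and it did not occur in the windows of Fcer1g and Cx3cr1. Of all 32851 promoters in the table, 28.3% held it. A match describes the letters and not a bound site. It was thus found in C1qb, with 0 counts in every library, and not in Lyz2, with the highest level per kb. Sfpi1, the symbol under which the gene of PU.1 was counted, had 0, 44, 66 and 2 counts in controls and 277, 2, 11 and 1 counts in mito-supplemented samples, which are high and low in the same libraries as Ptprc.

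Tyrobp and Fcer1g encode small transmembrane adaptors with a tyrosine-based activation motif, through which receptors without a signalling tail of their own, such as Trem2 and the Fc receptors, recruit the kinase Syk. Tyrobp was at 3.12, 7.22, 7.09 and 0.592 CPM in controls and at 22.1, 0.554, 1.86 and 0 CPM in mito-supplemented samples. Fcer1g was at 5.74, 2.62, 3.09 and 0.592 CPM in controls and at 26.5, 0.416, 2.54 and 0.139 CPM in mito-supplemented samples. Both were highest in mito-supplemented replicate 1 and at 3 counts or fewer in control replicate 4 and mito-supplemented replicate 4, and the groups overlapped for each. Control replicate 1 came next for Fcer1g, whereas for Tyrobp it came after control replicates 2 and 3. Of 14 genes listed with these adaptors, mostly receptors and kinases, 6 passed the expression filter. Among these, 0 had an unadjusted p under 0.05 in edgeR's quasi-likelihood test, beside 7.71% of all genes tested. Syk, the most abundant of them, had its highest level, 64.4 CPM, in mito-supplemented replicate 4, a library with 0 Tyrobp and 2 Fcer1g counts. The kinase Lyn and the receptor Trem1 followed Ptprc more closely, with 24.2 and 22.2 CPM in mito-supplemented replicate 1 and at most 0.973 CPM in mito-supplemented replicate 4.

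Csf1r, the receptor of both macrophage growth factors, had 54, 23, 75 and 5 counts in controls and 218, 87, 101 and 19 counts in mito-supplemented samples. As CPM these were 2.22, 1.82, 4.29 and 0.987 in controls and 10.6, 6.03, 4.58 and 1.32 in mito-supplemented samples. In this gene 3 of the 4 mito-supplemented libraries lay above every control library and the other 1 lay within the control range. The log2 fold change of 1.26 ± 0.80 (SE) had an adjusted p of 0.711 in edgeR's quasi-likelihood test, which adjusts over all genes tested. Exons of Csf1r overlap those of Hmgxb3 on the opposite strand over 873 bases, and since the strand setting of the counting is not given, reads from that stretch cannot be told apart.

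Of the ligands, Csf1 was at 0.820, 3.17, 1.54 and 0.987 CPM in controls and at 5.68, 3.39, 4.36 and 43.1 CPM in mito-supplemented samples. Every mito-supplemented library thus lay above every control library for Csf1, while groups without overlap occurred in 5.03% of all genes tested. The gap was from 3.17 CPM in control replicate 2 to 3.39 CPM in mito-supplemented replicate 2. Most of the distance came from mito-supplemented replicate 4, with 620 counts, the only library with the first part of its label code. Its log2 fold change was 3.10 ± 0.97 (SE), with an unadjusted p of 0.00958 and an adjusted p of 0.599 in edgeR's quasi-likelihood test, and lay between 1.47, without mito-supplemented replicate 4, and 4.25, without the 3 libraries highest in Slc4a1, which were left out together after the data were seen. Il34, the other ligand, had 573 of its counts in control replicate 1 (23.5 CPM) and lay between 0.515 and 5.33 CPM in the other 7 libraries. Its log2 fold change of -1.13 ± 1.00 (SE), with an adjusted p of 0.766 in edgeR's quasi-likelihood test, became 0.57 without control replicate 1. Among the 5 genes of this list, which also held Csf2ra and Csf2rb, the receptor subunits for a related growth factor, Csf1 alone had an unadjusted p under 0.05 in this test, beside 7.71% of all genes.

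Cx3cr1 encodes the receptor for fractalkine on monocytes and many tissue macrophages. It was at 1.81, 0.872, 0.229 and 0.987 CPM in controls and at 0.437, 0, 1.36 and 3.06 CPM in mito-supplemented samples, so that its lowest and its highest library were both mito-supplemented. Mito-supplemented replicate 1, the highest library for 5 of the other members, was among the lowest here with 9 counts. Cx3cl1, which encodes fractalkine, had 86, 14, 35 and 0 counts in controls and 49, 56, 137 and 0 counts in mito-supplemented samples. Ligand and receptor were not at 0 in the same library. The log2 fold changes were 0.31 ± 1.26 (SE) for the receptor and 0.88 ± 1.38 (SE) for the ligand, both smaller than their standard errors. The value of the ligand was 1.56 without control replicate 1, 0.34 without mito-supplemented replicate 3 and 0.01 with limma-voom. An antisense gene, Gm33858, shares 78 exon bases with Cx3cr1.

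Cd68 encodes a lysosomal membrane glycoprotein abundant in macrophages and present at lower levels in the lysosomes of other cells. Its level was 2.63, 5.23, 4.40 and 0.197 CPM in controls and 1.5, 2.49, 4.67 and 4.73 CPM in mito-supplemented samples. Apart from control replicate 4, where it had 1 count, the libraries lay within a narrow range, and mito-supplemented replicate 1 was the lowest of its group. The log2 fold change was 0.09 ± 0.90 (SE).

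The genes C1qa, C1qb and C1qc encode the 3 chains of C1q, the recognition subunit of the classical complement pathway, which tissue macrophages secrete. They lie on the minus strand within 18675 bases at chr4:136880129-136898803. C1qb had 0 counts in all 8 libraries, which allows at most 0.123 to 0.592 CPM depending on the library. C1qa had 7 counts in mito-supplemented replicate 2, 1 in mito-supplemented replicate 3 and 0 in the other 6. C1qc had 22 counts in mito-supplemented replicate 3 and at most 2 in any other library. The chains were thus not detected together in any library above the floor of 3 counts, and the 3 genes fell below the expression filter and were not tested. In mito-supplemented replicate 1, with 1478 counts of Ptprc and 13151 of Lyz2, all 3 chains had 0 counts.

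The proteases that C1q activates were counted in every library. C1ra had 1.19, 1.35, 1.54 and 2.57 CPM in controls and 1.70, 5.26, 4.40 and 6.54 CPM in mito-supplemented samples, with a log2 fold change of 1.44 ± 0.73 (SE). C1s was at 4.88, 1.03, 2.00 and 15.2 CPM in controls and at 12, 25.3, 13.3 and 31.4 CPM in mito-supplemented samples, with a log2 fold change of 1.85 ± 0.80 (SE), which was 2.96 without control replicate 4 (adjusted p 0.181 in edgeR's quasi-likelihood test) and lay between 1.24 and 2.96 over all alternatives. For C1ra 3 mito-supplemented libraries lay above all controls, and for C1s 2 did, yet the groups overlapped in both genes. The adjusted p was 0.667 for C1ra and 0.636 for C1s in edgeR's quasi-likelihood test. Of 17 complement genes matched, 12 were tested, and 2 had an unadjusted p under 0.05 in that test, beside 7.71% of all genes, namely C1s and Serping1, the latter encoding the C1 inhibitor and named after its value was seen. Cd55 and C3 were among the 3 most abundant complement genes, and C3 had 10, 1464, 1385 and 141 counts in controls and 5148, 361, 77 and 1530 counts in mito-supplemented samples, so that the groups overlapped.

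Per kb of annotated exon, Lyz2 had the highest mean level over the 8 libraries, 80.2 CPM per kb, followed by Tyrobp with 7.97, Fcer1g with 5.95, Cd68 with 2.57, Ptprc with 0.844, Csf1r with 0.689, Cx3cr1 with 0.243, C1qc with 0.0909, C1qa with 0.0637 and C1qb with 0 CPM per kb. The SD over libraries was 166.1 CPM per kb for Lyz2, 11 for Tyrobp, 10.1 for Fcer1g, 1.38 for Ptprc, and 1.44 for Cd68, and it exceeded the mean in each of these but Cd68. Cd68 and Ptprc differed by more than the SD of either, and all other neighbours in this order differed by less than the larger of their SDs. By the median over libraries, Ptprc stood at 0.050 CPM per kb, below Csf1r with 0.563 and Cx3cr1 with 0.206, as 5 of its 8 libraries were at 1.04 CPM or less.

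Likeness between genes was measured as the root mean square difference of log2 CPM over the 8 libraries, each gene centred on its own mean. Tyrobp and Fcer1g were the most alike of the 21 pairs of tested members, at 0.84, followed by Ptprc and Lyz2 at 0.91. The least alike were Lyz2 and Cx3cr1, at 3.52. Among the list genes other than the members, Tyrobp lay nearest to Laptm5, a lysosomal membrane protein of blood cells (0.43), Fcer1g to Lcp1, the leukocyte plastin (0.73), Lyz2 to Itgam, the alpha chain of a leukocyte integrin (0.90), and Ptprc to Sfpi1 (0.92). Csf1r lay nearest to the endothelial gene Tie1 (0.95), Cd68 to Nr5a1 of the granulosa list (1.06) and Cx3cr1 to Foxl2 of the same list (1.17). Several of these were near ties, since the red cell gene Alas2 lay at 0.93 from Lyz2 and 0.95 from Ptprc, and Cfp of the complement list at 0.99 from Csf1r. Outside all lists, the 10 genes nearest to the mean profile of the members were Gab3, Fbxo42, Ccr1, Gadd45a, Stradb, Syne1, Yipf4, Cln8, Plekhf2 and Asb1, at distances from 0.43 for Gab3 to 0.52 for Asb1. Asb1 went from 3.75 to 45.6 CPM over the controls and from 2.5 to 49.7 CPM over the mito-supplemented libraries.

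In the comparison of mito-supplemented with control samples, 7 of the 10 members passed the expression filter, and 0 were called at an adjusted p under 0.05 and a 2-fold change in edgeR's quasi-likelihood test, which called 0 of all 13873 genes tested (0%). At an unadjusted p under 0.05 in this test there were 0 members, beside 1069 of all genes (7.71%). The likelihood ratio test called 58 genes (0.418%), DESeq2 141 and limma-voom 0, none of them a member. Groups without overlap occurred in 0 of the 7 members and in 698 of all genes (5.03%). The count of genes at an unadjusted p under 0.05 was 2003 when mito-supplemented replicate 1 was left out, 1863 when control replicate 4 was, 572 for mito-supplemented replicate 2 and 636 for mito-supplemented replicate 4.

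Apart from Csf1r, no member tested had a log2 fold change larger than its standard error. Ptprc had a log2 fold change of 0.54 ± 1.76 (SE), Lyz2 of 1.71 ± 1.74, Tyrobp of 0.44 ± 1.45 and Fcer1g of 1.28 ± 1.35, and adjusted p values lay between 0.711 for Csf1r and 0.978 for Cd68 in edgeR's quasi-likelihood test. All 7 values were above 0 in this test, beside 6225 of all 13873 genes tested. Their median was 0.54, beside -0.098 for all genes tested. The sign of the median and of 4 members turned with 1 library, while Cd68 fell below 0 without control replicate 4 (-0.26) or mito-supplemented replicate 3 or 4 (-0.08 and -0.09), and Cx3cr1 without control replicate 3 (-0.02) or mito-supplemented replicate 4 (-0.63). Without mito-supplemented replicate 1, the log2 fold change was -4.45 for Ptprc, -4.10 for Lyz2, -2.44 for Tyrobp and -1.49 for Fcer1g, the median of the members was -1.49, and 2 members had an unadjusted p under 0.05 in edgeR's quasi-likelihood test, beside 2003 of all 14251 genes tested then, of which 0 were called. Limma-voom gave a median of -0.74 with all 8 libraries, and 2 of the 7 members were above 0. Taken as means of log2 CPM, Lyz2 was at 4.60 in controls and 3.45 in mito-supplemented samples, and Ptprc at 1.94 and 0.93, whereas the means of CPM, 49.3 ± 46.7 (SD, n = 4) and 161.7 ± 317.6 for Lyz2 and 12.6 ± 14.5 and 18.3 ± 35.6 for Ptprc, have the opposite order. Without mito-supplemented replicate 1 and control replicates 2 and 3, the 3 libraries highest in Slc4a1, left out together after the data were seen, the median of the members was -0.54, and 3 of the 6 members tested, Csf1r, Cd68 and Cx3cr1, were above 0, at 1.31, 1.46 and 0.09. Csf1r, in contrast, had a positive value in each of these fits, between 0.62 and 1.73 over all alternatives tried, and was called in none of them.

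**Figure D3:**
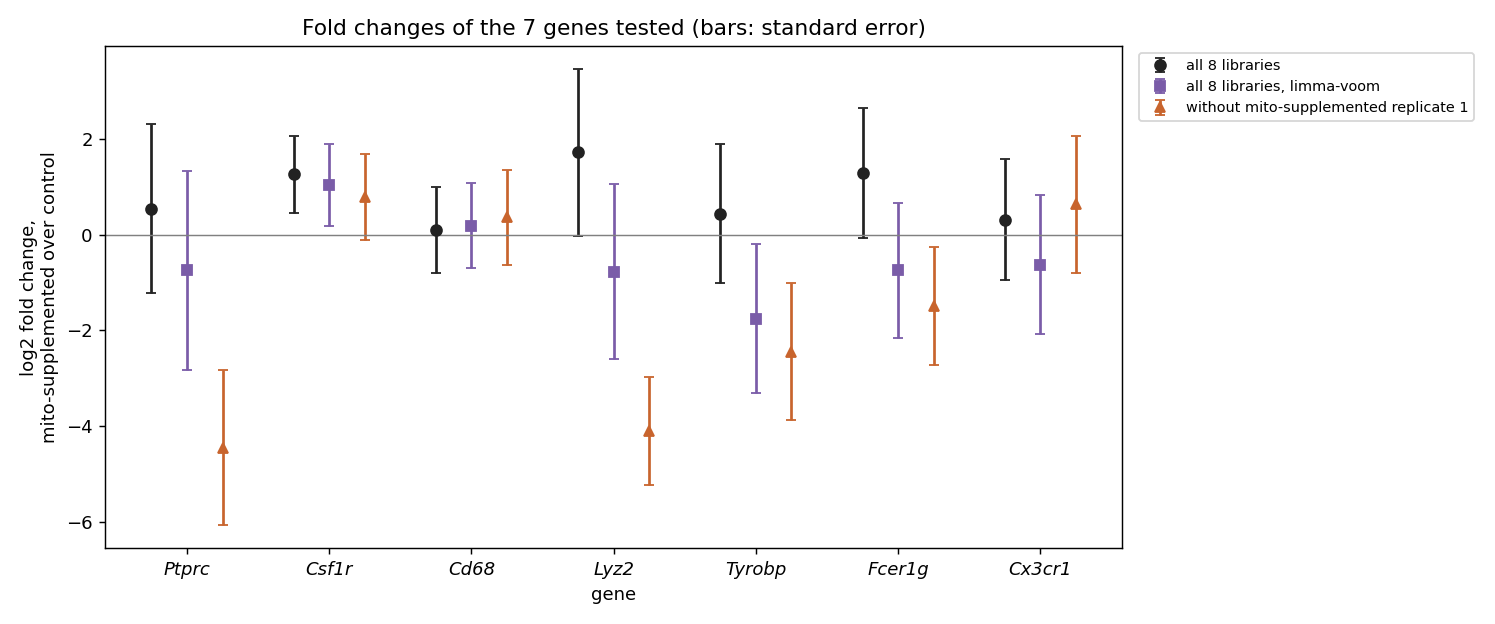
Log2 fold change of mito-supplemented over control samples for the 7 members tested, with standard errors as bars, from edgeR with all 8 libraries (black circles), limma-voom with all 8 libraries (purple squares) and edgeR without mito-supplemented replicate 1 (orange triangles). Ptprc moves from 0.54 to -4.45 and Lyz2 from 1.71 to -4.10 when this library is left out, while Csf1r and Cd68 lie above 0 in all 3 fits.

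Other macrophage and leukocyte genes divided in the same way. Of 28 further macrophage genes, 14 were tested and 0 had an unadjusted p under 0.05 in edgeR's quasi-likelihood test, beside 7.71% of all genes. The most abundant were Lcp1, Itgam and Cybb, and the latter, a subunit of the phagocyte oxidase, was at 0.082, 30.1, 24.8 and 0 CPM in controls and at 90.3, 2.01, 0.091 and 0.139 CPM in mito-supplemented samples. Itgam was at 2.13, 48.5, 35.9 and 2.17 CPM in controls and at 248.7, 1.04, 0.544 and 0.487 CPM in mito-supplemented samples. Cybb and Itgam, which neutrophils and macrophages share, were high in the libraries that were high in Lyz2. Lcp1 was also highest in mito-supplemented replicate 1 but had 178.3 CPM in control replicate 1, above control replicates 2 and 3 with 70.5 and 68.9 CPM. Mrc1, the mannose receptor, named after its value was seen, did not follow Lyz2, with its highest count, 394, in mito-supplemented replicate 3. Some of the further macrophage genes were scarce in mito-supplemented replicate 1, with 16 counts of Cd163 (at most 23 in any library), 0 of Timd4, 0 of Trem2 and 0 of Ms4a7. Others were highest in that library, such as Cd14 with 281 counts and Ccr2 with 169, as was the summed level of the list, 857.9 CPM. Csf1r was highest there too, with 218 counts. The same library had 17313 counts of Ngp and 15905 of S100a9. Cd163, Timd4, Ms4a7, Cd14 and Ccr2 were named after their values were seen.

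**Figure D4:**
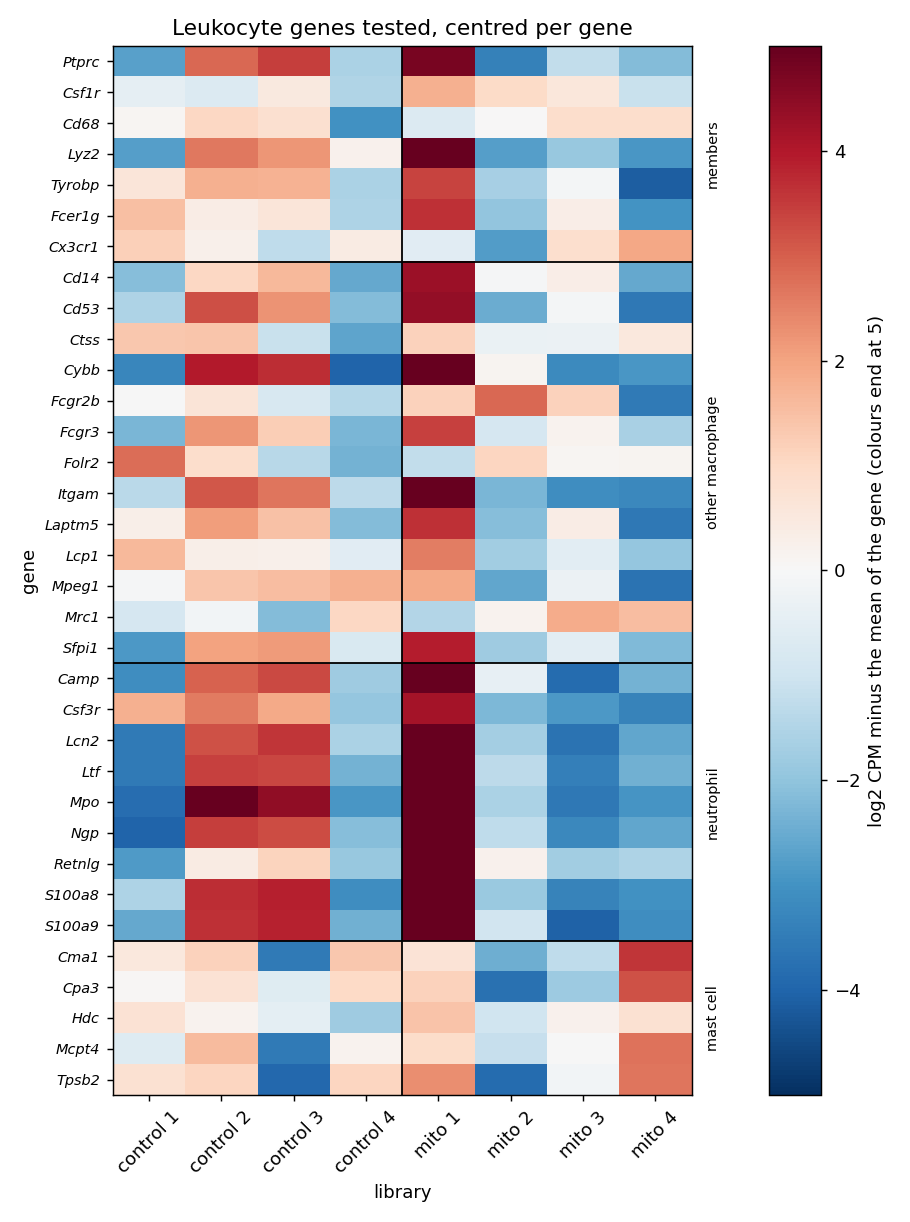
Log2 CPM of the 7 members tested and of 27 tested genes of the other macrophage, neutrophil and mast cell lists in each library, each gene centred on its mean over the 8 libraries (red above, blue below, colours ending at 5 log2 units). Ptprc, Lyz2, Tyrobp, Cd53, Cybb, Itgam and Sfpi1 share the columns of the neutrophil genes, and Cd68, Csf1r, Cx3cr1 and Mrc1 do not.

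Of the 11 neutrophil genes, 9 were tested and 1, Retnlg, named after its value was seen, had an unadjusted p under 0.05 in edgeR's quasi-likelihood test, beside 7.71% of all genes. The proportions of the granule genes differed between the libraries in which Lyz2 was high. Elane, a protease made in early granulocyte precursors, had 146, 181 and 9 counts in control replicate 2, control replicate 3 and mito-supplemented replicate 1, whereas Retnlg and Mmp8, made late in granulocyte maturation, had 18, 42 and 1949 and 70, 44 and 1397 counts in the same order. Mpo, also made early, had 3357, 2602 and 4961 counts in that order, which against Lyz2 were ratios of 2.61, 2.01 and 0.377. Elane, Retnlg and Mmp8 were named after their values were seen.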

How the data were processed

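Total RNA from primordial follicles of 4 mito-supplemented and 4 control samples was sequenced with the Trio RNA-Seq kit on an Illumina instrument. The authors trimmed the reads with Trim Galore 0.4.4, mapped them to GRCm38 with STAR 2.5.3a and summarised them over exons with featureCounts, and the deposited values used here are raw counts per gene symbol. Annotation release, strand setting and treatment of reads with several matches are not given in the sources used here. Groups and replicate numbers are those of the sample labels.

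Counts were normalised by TMM in edgeR 4.0.16 (R 4.3.3), filtered with its filterByExpr defaults and tested with glmQLFit and glmQLFTest (edgeR's quasi-likelihood test), p values being adjusted by Benjamini and Hochberg's method over all 13873 genes kept. Calls needed an adjusted p under 0.05 and a log2 fold change of 1 or more in size. CPM are counts per 1000000 of the TMM-scaled total of the genes kept, log2 CPM had a prior count of 2, and standard errors were the log2 fold change over the root of F. If the samples do not come from separate animals, p values measure the spread between samples only. The scripts were tested on simulated counts. Alternatives were the likelihood ratio test that the authors used, DESeq2 1.42.0, limma-voom (limma 3.58.1), other normalisations and filters, counts without ribosomal RNA symbols, the replicate number as a block, counts summed by label code, each library left out and, added after the data were seen, 3 libraries left out together.

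The genes named were the 10 members, the 3 most abundant of each list, any gene called, the ligands and partners Csf1, Il34, Cx3cl1, Spi1 (counted as Sfpi1), Trem2, Adgre1 (counted as Emr1), Itgam, C1ra, C1s, Lyz1 and Slc4a1, and the 10 genes outside the lists with the most similar profile. Members and lists were chosen with earlier results of these data known. Other lists held macrophage, ligand, adaptor partner, complement, antigen presentation, T cell, B cell, natural killer cell, neutrophil, mast cell, platelet, red cell, endothelial, oocyte, granulosa and stroma genes, and symbols were matched through older names where needed. C1s1, Trbc1, Trbc2, Ighm, Hbb-bt and Ahsp were not matched. Exon lengths and overlaps are from GENCODE M21, and promoters from RefSeq, GRCm38.p6, which held 7 of the 10 members used, while Tyrobp and C1qa are named only. The excluded control library and the breeding and follicle measurements were not analysed here. Single-gene values of some list genes are not reported here.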

Additional observations from a re-analysis of the deposited data

Results flagged for a closer look

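Values far from the other 3 libraries of a group were found in 4 of 52 groups of 4 examined, and chance gives about 1 in 20 such groups, or 2.6 of 52. Lyz2 stood at a log2 CPM of 9.32 in mito-supplemented replicate 1, with the rest of that group between 1.10 and 2.12. The log2 of the summed CPM of the 10 members was 9.59 in the same library, against 3.57 to 4.42, and that of the other macrophage genes was 9.74, against 5.94 to 6.36. Among the controls, the summed level of the other macrophage genes was 6.14 in control replicate 4, the library with the largest share of ribosomal RNA counts, against 7.54 to 7.81 in the other controls.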

How the results depend on the processing

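Of 293 values of 15 named genes under 20 alternatives, 260 kept their direction and their side of the threshold and 33 changed sign. The likelihood ratio test called 58 genes and DESeq2 141, while 0 members were called under any alternative. With each library left out, genes at an unadjusted p under 0.05 ranged from 572 to 2003, the members' median log2 fold change from -1.49 to 1.29 and the log2 ratio of their summed level from -2.31 to 1.90 (1.43 with all libraries), and log2 fold changes ranged from -4.45 to 1.40 for Ptprc, -0.26 to 0.45 for Cd68, -4.10 to 2.35 for Lyz2, -2.44 to 0.86 for Tyrobp, -1.49 to 1.80 for Fcer1g, -0.63 to 0.85 for Cx3cr1, -1.52 to 0.57 for Il34, 1.47 to 3.65 for Csf1, 0.34 to 1.56 for Cx3cl1, -4.99 to 2.22 for Itgam and -5.57 to 0.41 for Slc4a1, and that of C1s reached 2.96 without control replicate 4. With limma-voom the median was -0.74, and values were -0.75 for Ptprc, -0.78 for Lyz2, -1.75 for Tyrobp, -0.74 for Fcer1g, -0.63 for Cx3cr1 and -1.56 for Itgam. Counts summed by label code gave -0.14 for Ptprc and -0.16 for Tyrobp. Without the 3 libraries highest in Slc4a1, an alternative chosen after the data were seen, the median was -0.54, the summed level -0.42, Lyz2 -1.86, Tyrobp -1.17, Fcer1g -1.57, Itgam -1.62 and Slc4a1 0.78, while 3 of the 6 members tested were above 0, Csf1r at 1.31, Cd68 at 1.46 and Cx3cr1 at 0.09, with Csf1 at 4.25, and Ptprc and Sfpi1 fell below the filter. Same-numbered samples deviated with correlations of -0.24, -0.19, -0.33 and 0.22. No pairing by replicate number was seen in these values, which cannot exclude it. With the replicate block, 0 genes were called, 981 had an unadjusted p under 0.05, the median was -0.63, and values were -2.65 for Ptprc, -3.15 for Lyz2, -1.96 for Tyrobp, -0.63 for Fcer1g, -0.42 for Cx3cr1, 0.14 for Il34, -2.01 for Sfpi1 and -3.34 for Itgam. Scaling by library size alone moved the median of all genes from -0.098 to 0.17 and that of the members to 0.71. The causes of these changes were not tested. Depth limits C1qa, C1qb and C1qc, with 8, 0 and 27 counts in all, and control replicate 4, where 3 counts equal 0.592 CPM.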

Other observations

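Lists of other cell types not described with the 10 genes gave the following. Mast cell genes (7 listed, 5 tested, 0 at an unadjusted p under 0.05 in edgeR's quasi-likelihood test, beside 7.71% of all genes) summed to 37.7, 48.0, 13.1 and 37.7 CPM in controls and to 71.2, 7.48, 21.4 and 174.3 CPM in mito-supplemented samples. Cpa3, a protease of mast cell granules, had 1034 counts in mito-supplemented replicate 4, the library with the most Csf1 and Syk and with 0 Tyrobp, while Fcer1a, the alpha chain of the IgE receptor that signals through Fcer1g, had 0 counts in all 8 libraries. The next highest library for mast cell genes, mito-supplemented replicate 1, was the highest for Ptprc, while mito-supplemented replicate 4 had 7 counts of Ptprc. Lymphocyte genes were scarce: B cell genes summed to at most 4.56 CPM, natural killer cell genes to at most 3.73 CPM and T cell genes to at most 12.2 CPM in any library, with 0 of 6, 0 of 7 and 2 of 8 tested. T cell counts in control replicate 1 were mostly Cd4, with 201 counts beside 0 of Cd3e. Antigen presentation genes, with Cd74 and H2-Aa as the most abundant, had 2 of 8 tested and at most 11.9 CPM, in control replicate 1. Platelet genes had 1 of 6 tested and at most 26.9 CPM, in control replicate 2.

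Follicle and stroma genes varied between libraries as well. Oocyte genes summed to 3691 CPM in control replicate 1 and to between 124.5 and 784.2 CPM in the other 7 libraries. Of 13 tested, 1, Kit, had an unadjusted p under 0.05 in edgeR's quasi-likelihood test, which is near the share of all genes, 7.71%. Granulosa genes summed to 238.1, 173.0, 234.4 and 680.9 CPM in controls and to 317.3, 857.8, 622.5 and 1024 CPM in mito-supplemented samples, and 4 of 12 tested, Amhr2, Irx3, Irx5 and Nr5a1, had an unadjusted p under 0.05 in that test (beside 7.71% of all genes), as did 1 of 9 endothelial genes, Esam, and 0 of 10 stroma genes. These genes, other than Kit, were named after their values were seen. Stroma genes summed to between 340.7 CPM in control replicate 1 and 2546 CPM in mito-supplemented replicate 3, and endothelial genes to between 27.8 CPM in control replicate 1 and 229.5 CPM in mito-supplemented replicate 2.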
